A study of Mus musculus with 10 samples.

Results

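The genes described here are 10 that mark innate-like and γδ T cells in the mouse thymus. They are the transcription factors Sox13, Maf, Zbtb16, Tbx21 and Eomes, the surface receptors Cd163l1, Il2rb, Cd27 and Klrd1, and the cytotoxic granule gene Nkg7. They were chosen by name as lineage genes, with earlier results of these data known. All 10 were found by Ensembl identifier among the 35375 features of a table of read counts per gene. The counts came from ribosome-depleted total RNA of whole thymus, taken 3 days after birth from 10 C57BL/6J mice. Usp7, which encodes a deubiquitinating enzyme, was deleted in hematopoietic cells, on both alleles (homozygous KO, n = 3 animals) or on 1 allele (heterozygous KO, n = 3 animals), and 4 animals were wild type. The series counts 2 wild types with cre induction and 2 without, and names no Cre driver. The column names of the count table carry the word het for wild type 3 and 4, which their sample titles lack, while those of wild type 1 and 2 repeat the word wt, as do their titles. Neither the meaning of the extra word nor which pair had cre is stated, and the 4 were kept as wild type as labelled. Each library was made from the thymus of a separately numbered animal. Reads of Usp7 were counted over the whole gene, so that undeleted exons and cells outside the hematopoietic system can also contribute, and Usp7 had 303 to 422 CPM (counts relative to the library total) in homozygous KO against 472 to 516 in heterozygous KO and 589 to 676 in wild type.

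γδ T cells leave the thymus early in life and are often committed there to make either interleukin-17 or interferon-γ. Sox13 and Maf belong to the program of the interleukin-17 branch, which also carries the scavenger receptor SCART1, encoded by Cd163l1. Cd27, Tbx21 and Il2rb are features of the interferon-γ branch. Zbtb16 encodes PLZF, the factor that gives invariant NKT cells and some γδ T cells their innate-like behavior, and Eomes, Klrd1 and Nkg7 are shared by NK cells and cytotoxic T cells. Most of these genes are not restricted to 1 cell type: Maf is also expressed in macrophages, and Cd27 in most thymocytes. In whole thymus, fewer cells of a type and less RNA per cell cannot be told apart.

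Total counts per library ranged from 92.3 to 122.4 M in homozygous KO, from 90.5 to 97.4 M in heterozygous KO and from 39.8 to 86.4 M in wild type. All 10 genes passed the filter on low counts, with 5 counts of Eomes in homozygous KO 3 as the lowest value and 20500 counts of Cd27 in wild type 3 as the highest. Levels are given as CPM scaled by edgeR's TMM factors. Differences are log2 fold changes with the standard error (SE) from 1 edgeR quasi-likelihood fit over the 10 libraries, and a call means an adjusted p (Benjamini-Hochberg over the 19511 features tested) under 0.05. Xist was over 100 CPM in 3 wild-type, 0 heterozygous KO and 1 homozygous KO libraries, so that sex was not balanced between the groups.

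Of the 10 genes 6 fell and 0 rose in homozygous KO against wild type. Those that fell were Sox13, Maf, Zbtb16, Eomes, Cd163l1 and Nkg7, while Tbx21, Il2rb, Cd27 and Klrd1 did not pass the test. Of all features tested 25.8% were called in this comparison, and 13.2% were called lower. The median log2 fold change of the 10 genes was -0.95, beside -0.01 over all features tested. Since the genes were chosen with earlier results known, their counts beside these shares are a description and no independent test. The CPM of the groups did not overlap for 5 of the 10 genes, where 32.7% of all features showed no overlap. In heterozygous KO against wild type 0 of the 10 genes were called in edgeR, 2 had an unadjusted p under 0.05 (Maf and Cd27; 7.28% of all features did), and DESeq2 also called 0. The background of calls in that comparison was 0.0154%, or 3 of the 19511 features, and the median of the 10 genes was -0.15. Usp7 itself was not called there (log2 fold change -0.34, edgeR adjusted p 0.608), though its CPM did not overlap between those groups. The absence of a call in heterozygous KO is therefore not evidence of an unchanged level. In homozygous KO against heterozygous KO 4 of the 10 fell (Sox13, Maf, Zbtb16 and Eomes), against 17.1% of all features called and 9.5% called lower, with a median of -0.52. The comparisons share libraries and are not independent of each other. With only wild type 1 and 2 as controls, 4 of the 10 genes were called in homozygous KO (Sox13, Maf, Eomes and Nkg7). With only wild type 3 and 4 the 4 called were Sox13, Maf, Zbtb16 and Eomes. Over all features, 3595 were called with wild type 1 and 2 (1985 lower) and 2670 with wild type 3 and 4 (1623 lower). With all wild types 5030 were called (2584 lower). The 2 pairs of controls also differed in depth, with 39.8 and 41.0 M counts in wild type 1 and 2 and 86.4 and 81.0 M in wild type 3 and 4. The part of depth in these differences was not tested.

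**Figure D1:**
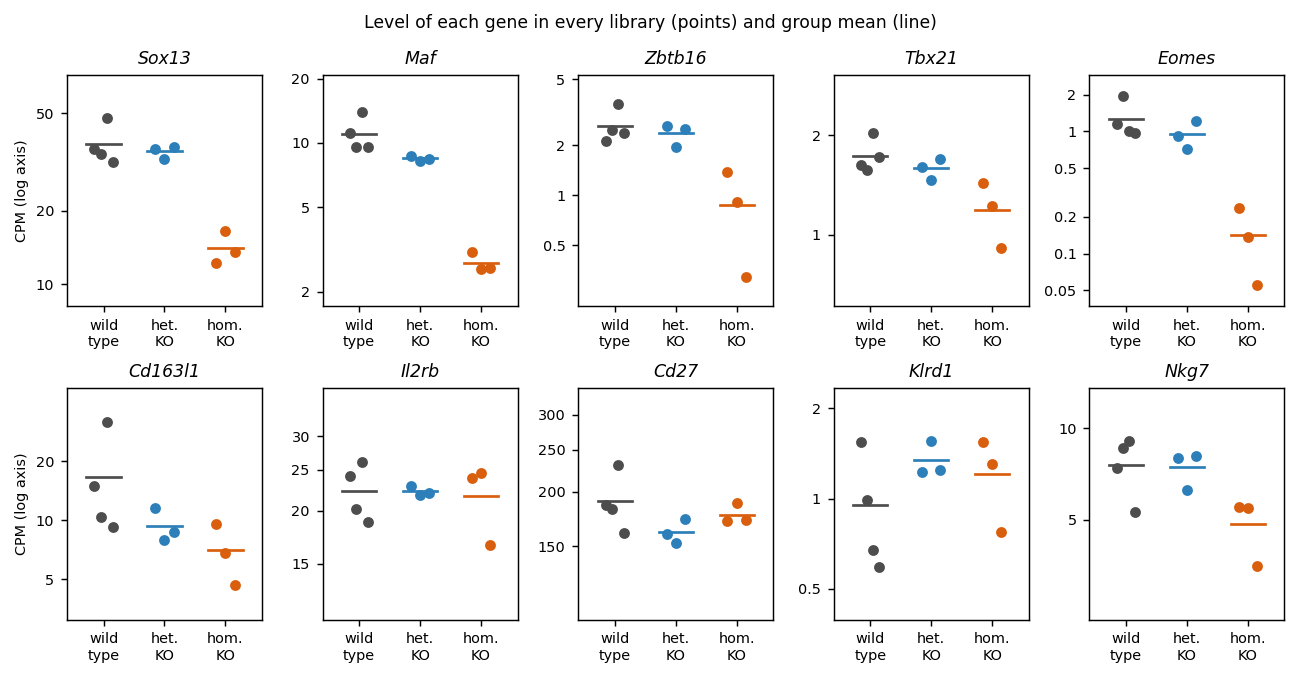
Level of each of the 10 genes in every library. Points are libraries, lines are group means, and the vertical axis of each panel is CPM on a log scale. The homozygous KO libraries lie below every other library for Sox13, Maf, Zbtb16, Tbx21 and Eomes, and at least 1 of them lies among the other libraries for Cd163l1, Il2rb, Cd27, Klrd1 and Nkg7.

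Among the transcription factors, Sox13, an SRY-box factor that is expressed early in γδ T cell commitment, had the highest level per kb. It had 35.8, 33.9, 48 and 31.5 CPM in wild type 1 to 4, 35.8, 32.6 and 36.5 CPM in heterozygous KO 1 to 3 and 12.2, 16.5 and 13.5 CPM in homozygous KO 1 to 3. The heterozygous libraries lay inside the wild-type range, and all homozygous libraries lay below it. The mean was 37.3 ± 7.34 CPM (SD, n = 4) in wild type and 14.1 ± 2.21 CPM (SD, n = 3) in homozygous KO, which is 37.7% of the wild-type mean. The log2 fold change was -1.41 (± 0.15 SE, adjusted p 6.5e-05 in edgeR). Against heterozygous KO it was -1.31 (± 0.16 SE, adjusted p 2.0e-04 in edgeR). The heterozygous difference from wild type was -0.09 with a 95% interval from -0.41 to 0.22 (edgeR adjusted p 0.927).

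Maf encodes c-MAF, which is needed for interleukin-17-producing γδ T cells and acts in many other immune cells. Its CPM was 11.1, 9.56, 14.0 and 9.55 in wild type, 8.72, 8.26 and 8.36 in heterozygous KO and 3.06, 2.56 and 2.58 in homozygous KO. The 3 groups did not overlap, and the heterozygous libraries lay just under the lowest wild type. Homozygous KO kept 24.8% of the wild-type mean, a log2 fold change of -2.01 (± 0.15 SE, adjusted p 7.5e-06 in edgeR), and 32.4% of the heterozygous mean (log2 fold change -1.63 ± 0.16 SE, adjusted p 5.5e-05 in edgeR). The heterozygous difference from wild type was -0.39 on the log2 scale (SE 0.14), with an unadjusted edgeR p of 0.021 and an adjusted p of 0.655, and was not called. Maf shares exon sequence with Gm15655 on the other strand, a gene that had 0 counts in every library.

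Zbtb16, the PLZF gene, had 2.11, 2.48, 3.56 and 2.36 CPM in wild type, 2.62, 1.95 and 2.52 CPM in heterozygous KO and 1.38, 0.910 and 0.321 CPM in homozygous KO. All homozygous libraries were below the others, and they spread widely among themselves, with homozygous KO 3 (29 counts) the lowest. The log2 fold change was -1.59 (± 0.39 SE, adjusted p 0.0127 in edgeR) against wild type and -1.43 (± 0.41 SE, adjusted p 0.0341 in edgeR) against heterozygous KO. The call against heterozygous KO was lost in 8 of 18 alternative analyses, among them the fit with the replicate number as a block (log2 fold change -1.47, edgeR adjusted p 0.0605) and those without homozygous KO 2, wild type 2 or any 1 of the heterozygous KO libraries. The call against wild type was lost in 1 of 20, with wild type 1 and 2 as the only controls (edgeR adjusted p 0.0723).

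Of the T-box factors, Eomes fell in homozygous KO and Tbx21 did not pass the test. Eomes, a regulator of NK cells and memory-type CD8 T cells, had 1.15, 1.95, 1.01 and 0.967 CPM in wild type, 0.920, 0.722 and 1.21 CPM in heterozygous KO and 0.234, 0.137 and 0.0554 CPM in homozygous KO, where the libraries held 27, 14 and 5 counts. No homozygous library reached the lowest of the other groups. With a log2 fold change of -3.11 (± 0.46 SE, adjusted p 6.0e-04 in edgeR), or 8.61-fold lower, Eomes had the largest change of the 10 genes in homozygous KO against wild type, and against heterozygous KO it was -2.70 (± 0.46 SE, adjusted p 0.0023 in edgeR). Tbx21, which encodes T-bet, the factor of interferon-γ production, had 1.62, 1.56, 2.04 and 1.72 CPM in wild type, 1.60, 1.47 and 1.70 CPM in heterozygous KO and 1.43, 1.22 and 0.909 CPM in homozygous KO. The homozygous libraries were again below all others, but its log2 fold change of -0.55 (95% interval -1.0 to -0.10, edgeR adjusted p 0.0727) did not pass the test. Tbx21 was called in 3 of 20 alternative analyses: with library totals alone as the scaling (edgeR adjusted p 0.0376), with DESeq2 (adjusted p 0.0444) and without homozygous KO 1 (edgeR adjusted p 0.0451). The difference between the changes of Eomes and Tbx21 was not tested. Eomes shares exon sequence with Gm33460 on the other strand and Cd27 with Mir8113 on the same strand, and the values of neither partner were analysed here.

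**Figure D2:**
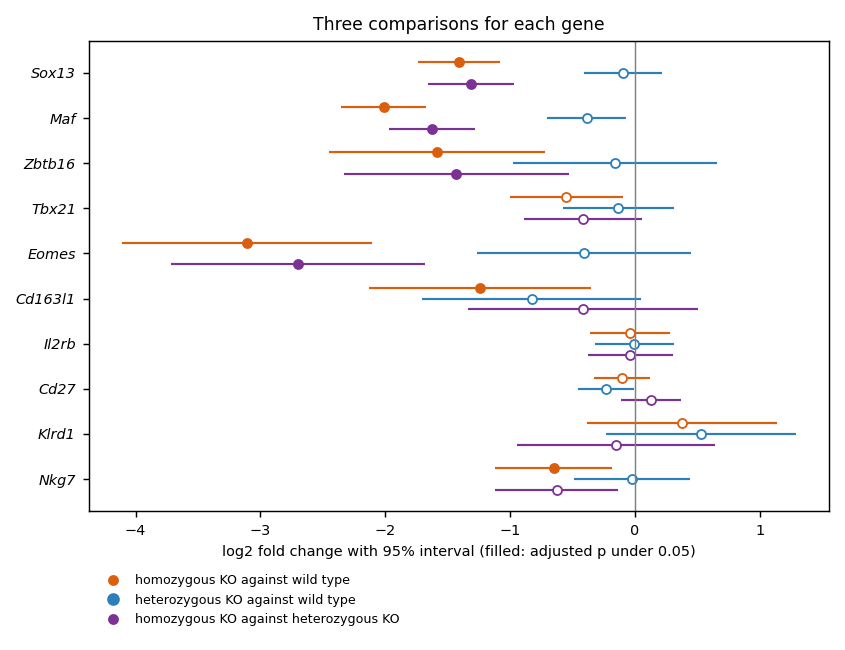
Log2 fold change of the 10 genes in the 3 comparisons, with 95% intervals on a linear axis. Filled points passed an edgeR adjusted p under 0.05: 6 in homozygous KO against wild type, 0 in heterozygous KO against wild type and 4 in homozygous KO against heterozygous KO.

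Of the 4 surface receptors only Cd163l1 passed the test in homozygous KO against wild type. Cd163l1, a scavenger receptor of interleukin-17-type γδ T cells, had 15, 10.4, 31.8 and 9.23 CPM in wild type, 11.5, 7.93 and 8.70 CPM in heterozygous KO and 9.59, 6.85 and 4.66 CPM in homozygous KO. The groups overlapped, since homozygous KO 1 was above wild type 4, and wild type 3 stood well above the other wild types. The log2 fold change was -1.24 (± 0.40 SE, adjusted p 0.0433 in edgeR) in homozygous KO and -0.83 (± 0.40 SE, adjusted p 0.705 in edgeR) in heterozygous KO. Without wild type 3 the homozygous value was -0.71 (edgeR adjusted p 0.0870), and the call was lost in 12 of 20 alternatives, over which the adjusted p ran from 0.0210 to 0.145. Those 12 also include leaving out wild type 1, homozygous KO 2, homozygous KO 3 or any 1 of the heterozygous KO libraries.

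Il2rb encodes the β chain shared by the interleukin-2 and interleukin-15 receptors. It had 24.2, 20.2, 26.1 and 18.8 CPM in wild type, 23.0, 21.8 and 22.0 CPM in heterozygous KO and 24, 24.5 and 16.6 CPM in homozygous KO. The groups overlapped throughout, and homozygous KO 3 was the lowest of the 10 libraries. The log2 fold change in homozygous KO was -0.04 with a 95% interval from -0.36 to 0.28 (edgeR adjusted p 0.864), and the heterozygous value was -0.0036 with an interval from -0.32 to 0.31 (edgeR adjusted p 0.998). Cd27, a costimulatory receptor of the tumor necrosis factor family, had 187, 183, 231 and 161 CPM in wild type, 160.2, 153 and 173 CPM in heterozygous KO and 171, 189 and 172 CPM in homozygous KO. Its groups also overlapped. The log2 fold change was -0.10 (95% interval -0.33 to 0.12, edgeR adjusted p 0.501) in homozygous KO and -0.23 (95% interval -0.46 to -0.01, edgeR adjusted p 0.681) in heterozygous KO.

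Klrd1 encodes CD94, the partner chain of the NKG2 receptors. Its CPM was 1.55, 0.987, 0.675 and 0.592 in wild type, 1.23, 1.56 and 1.24 in heterozygous KO and 1.54, 1.30 and 0.776 in homozygous KO. The wild-type libraries spanned the values of both knockout groups almost entirely. It was the only 1 of the 10 genes with a value above 0 in homozygous KO against wild type, 0.38 on the log2 scale (95% interval -0.39 to 1.14, edgeR adjusted p 0.465), and it was not called. The 4 libraries with Xist over 100 CPM had 0.592 to 0.987 CPM of Klrd1 and the other 6 had 1.23 to 1.56 CPM, with no overlap. The same split separated 0.528% of all features tested, and no other gene of the 10.

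Nkg7 encodes a membrane protein of cytotoxic granules. Its CPM was 7.39, 8.59, 9.07 and 5.32 in wild type, 7.99, 6.28 and 8.13 in heterozygous KO and 5.52, 5.45 and 3.51 in homozygous KO. The homozygous libraries overlapped the wild types only at wild type 4, which was below homozygous KO 1 and 2, and all 3 lay under the heterozygous libraries. The log2 fold change was -0.65 (± 0.21 SE, adjusted p 0.0442 in edgeR) against wild type, -0.63 (± 0.22 SE, adjusted p 0.0827 in edgeR) against heterozygous KO and -0.02 (95% interval -0.49 to 0.44, edgeR adjusted p 0.992) between heterozygous KO and wild type. The call against wild type was lost in 11 of 20 alternatives, among them those without wild type 1, 2 or 3, homozygous KO 2 or 3, or any 1 of the heterozygous KO libraries, with adjusted p from 0.0128 to 0.210. Against heterozygous KO it was gained in 4 of 18.

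Levels can be set side by side only per length. In wild type, per kb of exon, Cd27 was the highest at 81.8 ± 12.5 CPM per kb (SD, n = 4). Sox13 (8.65 ± 1.70), Nkg7 (8.31 ± 1.83), Il2rb (5.21 ± 0.786) and Cd163l1 (4.30 ± 2.70) followed. By the larger SD of each pair, Sox13 and Nkg7 lay within 1 SD of each other, as did Il2rb and Cd163l1. Further down, Klrd1 lay within 1 SD of Tbx21 and of Zbtb16. Maf had 1.34 ± 0.252 CPM per kb, and Klrd1 (0.742 ± 0.338), Tbx21 (0.697 ± 0.0847), Zbtb16 (0.497 ± 0.121) and Eomes (0.306 ± 0.111) were the lowest. In homozygous KO the order began with Cd27 (76.2 ± 4.21), Nkg7 (5.28 ± 1.24), Il2rb (5.06 ± 1.03) and Sox13 (3.26 ± 0.512), each n = 3, and ended with Eomes at 0.0342 ± 0.0216 CPM per kb.

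The start regions of 6 of the 10 genes were in RefSeq's promoter table (GRCm38.p6): Sox13, Cd27, Nkg7, Cd163l1, Eomes and Tbx21. Maf, Zbtb16, Il2rb and Klrd1 were not searched. The 250 bases before each start were searched on both strands for 3 motifs: CAGCTG and CAGGTG, forms of the E-box bound by E proteins, and AGGTGTGA, the core bound by T-box factors, whose first 5 letters can be the last 5 of CAGGTG. The motif CAGCTG occurred in 0 of the 6 regions, beside 13.0% of the 32851 promoters in the table. CAGGTG occurred in 1, that of Tbx21 at position -196, beside 17.2%. The T-box core AGGTGTGA occurred in 1, that of Nkg7 at position -14, beside 1.12% of all promoters. Both regions are shown because they hold the motifs, in capitals, with position -1 as the last base. They are the plus strand of chr7:43436888-43437137 for Nkg7 and the minus strand of chr11:97115332-97115581 for Tbx21. A match describes the letters and was not tested as a binding site.
Nkg7: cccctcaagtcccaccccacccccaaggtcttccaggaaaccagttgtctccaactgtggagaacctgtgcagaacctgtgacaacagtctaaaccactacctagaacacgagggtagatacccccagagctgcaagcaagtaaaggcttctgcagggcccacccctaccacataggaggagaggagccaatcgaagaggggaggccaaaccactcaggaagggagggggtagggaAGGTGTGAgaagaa
Tbx21: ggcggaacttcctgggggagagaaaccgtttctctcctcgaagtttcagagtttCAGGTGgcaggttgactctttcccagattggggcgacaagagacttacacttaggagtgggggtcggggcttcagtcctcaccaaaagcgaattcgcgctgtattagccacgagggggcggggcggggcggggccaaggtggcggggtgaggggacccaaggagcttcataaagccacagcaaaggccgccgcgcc

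Within each group, a few libraries held the extreme values of many of the 10 genes. Wild type 3 had the highest wild-type value for 8 of the 10 genes, all but Eomes and Klrd1, and wild type 4 the lowest for 8, while these libraries were the highest and the lowest wild type for 28.3% and 28.9% of all features. Heterozygous KO 2 was the lowest of its group for 9 of the 10 (33.2% of all features). Homozygous KO 3 was the lowest of its group for 7 (29.4%), and homozygous KO 1 the highest for 7 (37.1%). Over the 7 libraries without homozygous KO, the 45 pairs of these genes had a median Pearson r of 0.61 on the log2 scale, from -0.70 to 0.95. These points share library, depth and cell content, and the values are given as a description.

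Animal numbers in the titles fall into a block from 44 to 51 and a block from 56 to 63 that crosses the groups. Within the first block (1 homozygous KO library, 3 wild types) and the second (2 and 1), the log2 differences from wild type were -1.66 and -1.07 for Sox13 and -1.86 and -1.85 for Maf, from log2 of CPM plus 0.1. For Zbtb16 they were -0.90 and -1.91, for Eomes -2.09 and -2.48, for Cd163l1 -0.82 and -0.70, and for Nkg7 -0.58 and -0.28. The 6 called genes were thus lower in both blocks, each with an arm of 1 library. For Sox13, Maf, Zbtb16 and Eomes this had to be so, since every homozygous KO library lay below every wild type. The calls came from the same libraries, so the shared direction is a description and no separate test of the block. With the block as a term in edgeR, Cd163l1 (adjusted p 0.0731) and Nkg7 (adjusted p 0.0838) were no longer called.

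By Pearson r over the 10 libraries, among 12994 features with a symbol and enough counts, the nearest patterns to Sox13 were Mgam and Bmf (r 0.990 and 0.989), to Maf Slc45a3 and Sh3bp2 (0.995 and 0.993), to Zbtb16 Syt11 and Gimap4 (0.984 and 0.981) and to Eomes Btbd3 and Gm1966 (0.987 for each). Tbx21 was nearest to Zbtb16 (0.974) and to AI854703 (0.970), and Zbtb16 was the only 1 of the 10 genes among the nearest to another. Cd163l1 was nearest to Dgcr2 and Zfp760 (0.975 and 0.967), and Nkg7 to Rrp1b and Gpr65 (0.972 and 0.970). Il2rb (Trnau1ap and Psmg2, 0.927 and 0.917) and Cd27 (Flad1 and Arfip2, 0.953 and 0.942) had less close neighbors. Klrd1 was nearest to Naa50 (0.938) and to the Y-linked Kdm5d (0.906). The libraries of homozygous KO stand apart from the others for many features and are part of every r.

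**Figure D3:**
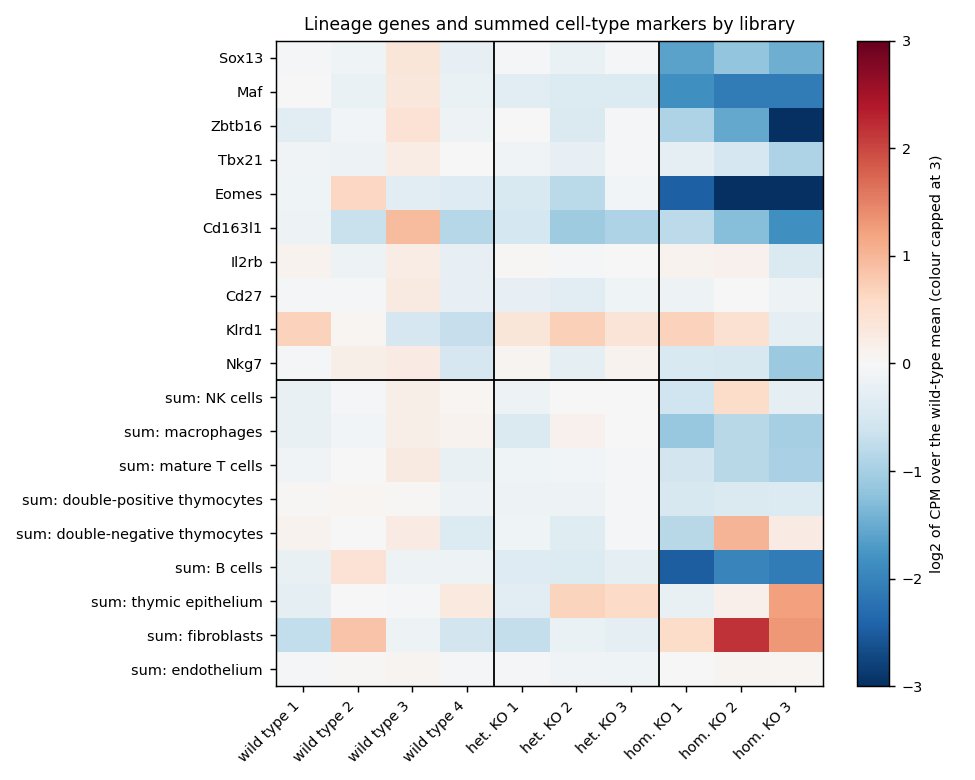
Log2 ratio of CPM to the wild-type mean for the 10 genes and for the summed CPM of cell-type markers, by library. Blue is below and red above the wild-type mean, with the color capped at 3. All homozygous KO libraries are below the wild-type mean for Sox13, Maf, Zbtb16, Tbx21, Eomes, Cd163l1, Nkg7 and, by little, Cd27. The same holds for the sums of macrophages, mature T cells, double-positive thymocytes and B cells.

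Most companion genes of the interleukin-17 γδ program also fell in homozygous KO. Of 14 genes tested (Sox4 and Trdc were not analysed here), 8 fell and 1 rose against wild type, with a median log2 fold change of -1.43, and 0 were called in heterozygous KO. Beside this and each list below, 25.8% of all features were called in homozygous KO against wild type, and 13.2% called lower. Against heterozygous KO these shares were 17.1% and 9.5%. Ccr6, the chemokine receptor of these cells, had a mean of 2.05 CPM in wild type and 3, 3 and 0 counts in homozygous KO. With each homozygous KO library set to 3 counts, Ccr6 was 69.4-fold lower. This value is not a bound, since 3 was the observed count in homozygous KO 1 and 2. Il17a, encoding the cytokine itself, had 0 counts in all homozygous KO libraries, which allows up to 3 counts in each, and was at least 14.6-fold lower than the wild-type mean of 0.431 CPM. With Ccr6 and Il17a set to 3 counts in each homozygous KO library, the median stayed at -1.43. Rora, a nuclear receptor of the same program, had 7.80 to 9.0 CPM in wild type and 0.942 to 1.45 CPM in homozygous KO (log2 fold change -2.77 ± 0.16 SE, adjusted p 1.2e-06 in edgeR). Scart2 (annotated as 5830411N06Rik), a relative of Cd163l1, was at 11.3, 2.64 and 2.69 CPM in homozygous KO against 19.5 to 35.5 CPM in wild type (log2 fold change -2.27 ± 0.48 SE, adjusted p 0.0053 in edgeR).

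The interleukin-7 receptor gene Il7r (log2 fold change -1.97), Etv5 (-0.92), Il17f (-1.95) and Il23r (-2.49) were the others that fell. The gene that rose was Tcrg-C4, a constant region of the γ chain, with 9.21, 30.1 and 16.2 CPM in homozygous KO and 3.92 to 7.36 CPM in wild type (log2 fold change 1.78 ± 0.33 SE, adjusted p 0.0026 in edgeR). Tcrg-C1 (log2 fold change 0.76, edgeR adjusted p 0.068) and Tcrg-C2 (0.70, 0.080) did not pass against wild type but were called higher against heterozygous KO, with values of 1.02 and 0.93. The γ-chain constant regions resemble each other and may share reads. Against heterozygous KO 6 of the 14 fell and 4 rose.

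**Figure D4:**
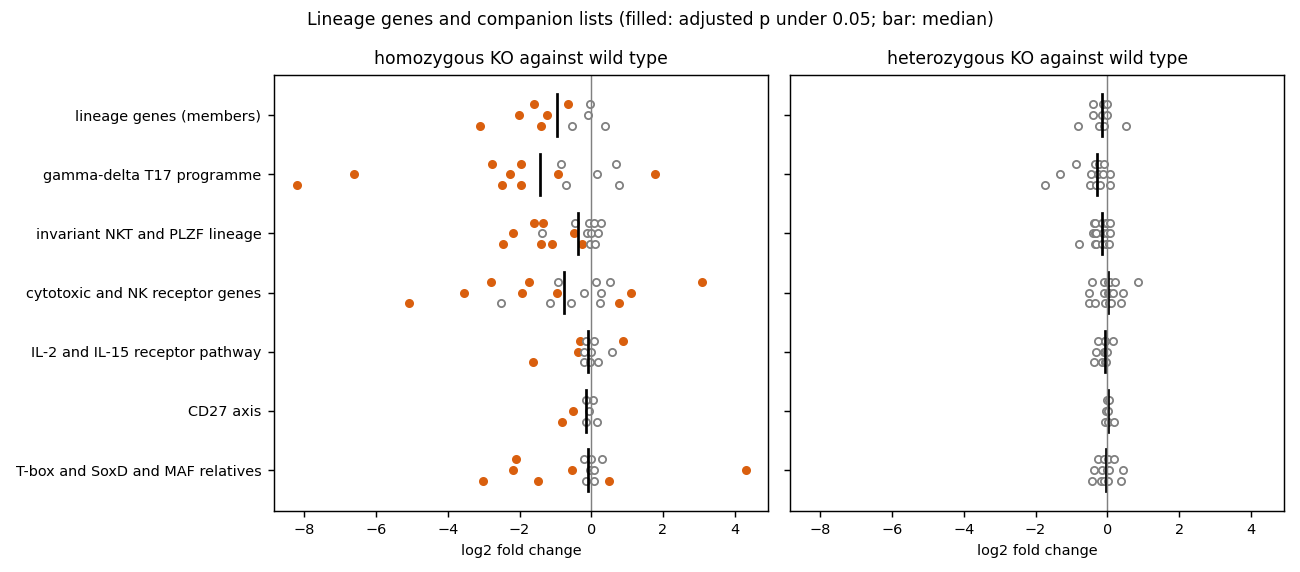
Log2 fold changes of the 10 lineage genes and of 6 companion lists, in homozygous KO (left) and heterozygous KO (right) against wild type, on a linear axis. Points are genes, filled where the edgeR adjusted p was under 0.05, and bars are medians. Filled points lie on both sides of 0 on the left, mostly below it, and there are 0 on the right. Il17a, Ccr6 and Klra1 are fitted values of genes at or under the floor in homozygous KO.

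Of 18 genes tested from the invariant NKT and PLZF lineage list, 8 fell and 0 rose in homozygous KO against wild type, with a median of -0.36. Over all features 25.8% were called and 13.2% called lower. Il18r1, the interleukin-18 receptor chain, had 2.50 to 5.39 CPM in wild type and 1.13, 0.460 and 0.344 CPM in homozygous KO (log2 fold change -2.46 ± 0.41 SE, adjusted p 0.0014 in edgeR). Egr2 and Egr1, which are induced by strong T cell receptor signals and act upstream of Zbtb16, changed by -2.19 and -1.41 (edgeR adjusted p 1.8e-04 and 4.6e-05), and the costimulatory receptor gene Icos by -1.60 (edgeR adjusted p 1.5e-04). Cd44, Il18rap, Slamf1 and Cd1d1 were the others that fell. Gata3, Fyn, Sh2d1a and Slamf6 had log2 fold changes between -0.12 and 0.08 and were not called. Against heterozygous KO 7 of the 18 fell and 0 rose, and in heterozygous KO against wild type 0 were called.

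Cytotoxic and NK receptor genes did not move one way. Of 18 tested, 6 fell and 3 rose in homozygous KO against wild type, with a median of -0.75. Of all features 25.8% were called and 13.2% called lower. The median was the same with Klra1 set to 3 counts in each homozygous KO library. Granzyme B (Gzmb) had 14.1, 46.5 and 19.4 CPM in homozygous KO against 2.97 to 3.66 CPM in wild type, and its log2 fold change was 3.08 (± 0.36 SE, adjusted p 1.3e-04 in edgeR). The chemokine Xcl1 (1.10) and the signaling adaptor Fcer1g (0.79) also rose. The genes that fell included perforin (Prf1) with a log2 fold change of -1.92 (± 0.25 SE, adjusted p 2.8e-04 in edgeR), the chemokine Ccl5 with -2.79 (± 0.22 SE, adjusted p 9.1e-06 in edgeR), the granule-associated Ctsw with -0.95 and the NK receptor gene Ncr1 with -1.73. Klra1 and Klra7, members of a family whose similar sequences may share reads, fell from a low level, with 0.171 CPM as the wild-type mean of Klra1 and at most 1 count in any homozygous KO library. Granzyme A (Gzma) had 66.4 to 77.0 CPM in wild type and 47.8 to 82.8 CPM in homozygous KO and was not called. Klrc1, which encodes the NKG2A partner of CD94, had a log2 fold change of -2.51 (± 0.91 SE, adjusted p 0.064 in edgeR). Against heterozygous KO 5 fell and 3 rose.

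Around Il2rb, 3 of 12 tested genes of the interleukin-2 and interleukin-15 receptor pathway fell and 1 rose in homozygous KO against wild type, with a median of -0.08. The log2 fold changes were -0.38 for the shared γ chain Il2rg (edgeR adjusted p 0.0039), -0.31 for the kinase Jak1 (edgeR adjusted p 0.0017) and -1.61 for the cytokine Il15 (edgeR adjusted p 0.031), which had 0.368 to 0.578 CPM in wild type. Socs3, a feedback inhibitor of cytokine signaling, rose by 0.88 (edgeR adjusted p 0.015). Jak3, Stat5a and Stat5b had values from -0.02 to 0.07 and were not called. In the CD27 axis 2 of 7 tested genes fell and 0 rose, with log2 fold changes of -0.52 for Map3k14, the NIK kinase, and -0.81 for its downstream factor Relb (edgeR adjusted p 0.0014 and 0.017). The ligand gene Cd70 was at or under 0.0900 CPM in every library and was not tested. Both lists had a share of called genes near the 25.8% of all features. In heterozygous KO 0 genes of either list were called. Against heterozygous KO 2 genes fell and 1 rose in the first list and 2 fell and 0 rose in the second.

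Among relatives and partners of the transcription factors, 5 of 14 fell and 2 rose in homozygous KO against wild type, with a median of -0.08. The shares over all features were 25.8% called and 13.2% called lower. Zbtb7b, which encodes ThPOK of CD4 and NKT lineages, had 19.5 to 36.0 CPM in wild type and 6.09, 2.31 and 1.16 CPM in homozygous KO (log2 fold change -3.03 ± 0.45 SE, adjusted p 6.4e-04 in edgeR). Zeb2 (-2.10), Prdm1 (-1.50), Tbx6 (-0.55) and Sox5 (-2.20), a SoxD factor like Sox13, also fell. Sox6, the remaining SoxD gene, went the other way with 5.48, 2.05 and 0.0776 CPM in homozygous KO and 0.0788 to 0.218 CPM in wild type (log2 fold change 4.31 ± 0.96 SE, adjusted p 0.0075 in edgeR). Its rise was confined to homozygous KO 1 and 2, and homozygous KO 3 was below all 4 wild types. Runx3, a factor of CD8 and cytotoxic cells, rose by 0.50 on the log2 scale (edgeR adjusted p 0.0028). The MAF relatives Maff, Mafg and Mafk had values from -0.20 to 0.08 and were not called. Against heterozygous KO 4 fell and 2 rose, and in heterozygous KO against wild type 0 were called.

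Markers of other cells moved with these genes in homozygous KO, and their part in the results was not tested. Of 8 macrophage markers 7 fell against wild type, and their summed level was 58.4 to 76.7 CPM in wild type, 50.6 to 74.0 CPM in heterozygous KO and 30.8 to 38.3 CPM in homozygous KO. C1qa, C1qb and C1qc changed by -2.37, -1.54 and -1.85 on the log2 scale, beside -2.01 for Maf, which macrophages also express. Of 5 B cell markers 5 fell, with sums of 29.9 to 47.5 CPM in wild type, 26.7 to 28.9 CPM in heterozygous KO and 6.34 to 8.92 CPM in homozygous KO. Of 5 markers of mature T cells 4 fell (Il7r among them). Their sums were 246 to 350.02 CPM in wild type, 264 to 278 CPM in heterozygous KO and 146 to 198 CPM in homozygous KO.

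Of 5 NK cell markers 4 were tested and only Ncr1 was called lower in homozygous KO against wild type. The median log2 fold change of the 4 was -0.81, beside -0.01 over all features tested. The sums of the 5 markers were 7.05 to 9.20 CPM in wild type and 7.37 to 8.27 CPM in heterozygous KO. In homozygous KO 1 to 3 they were 5.41, 12.0 and 6.77 CPM, so that the groups overlapped. The defining marker Klra8 had at most 0.0246 CPM in any library. The 8 double-positive thymocyte markers, which check the tissue label, were detected in every library and summed to 9049 to 10400 CPM in wild type, 8926 to 9546 CPM in heterozygous KO and 7208 to 7482 CPM in homozygous KO, with 2 of 8 lower and 1 higher. Double-negative markers summed to 268 to 420 CPM in wild type, to 275 to 347 CPM in heterozygous KO and to 198, 716 and 424 CPM in homozygous KO, with 2 of 5 lower and 1 higher. Fibroblast markers rose (3 of 5), with sums of 4.22 to 12.9, 4.27 to 6.20 and 10.3 to 32.0 CPM in wild type, heterozygous KO and homozygous KO. Epithelial markers had 1 of 6 higher and 1 lower, with sums of 41.4 to 60.8, 39.7 to 78.4 and 42.8 to 116 CPM in the same order. Endothelial markers had 0 of 4 called, with sums of 144 to 157, 136 to 145 and 151 to 158 CPM. Genes that stand in a marker list and in a companion list include Il7r, Il2ra, Cd44, Klrb1c, Ncr1 and Tyrobp. Of all 9 marker lists 0 genes were called in heterozygous KO.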

How the data were processed

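The authors deposited raw read counts per gene for 10 mouse thymus libraries, unnormalized, in 1 table. The submitters' processing notes name CASAVA, STAR 2.4.1d, HTSeq 0.6.1p1 and the builds NCBIM37 and mm9. The annotation release and the strand setting are not given in the sources used here. Columns were matched to samples by the animal and library number in the title, and 0 columns were left over. The columns of wild type 3 and 4 hold the word het, which their titles lack. Symbols and exon lengths came from GENCODE M21 (GRCm38), which may differ from the annotation used for counting, and reads of overlapping genes or near-identical copies are uncertain.

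All 35375 features entered the library totals. After filterByExpr, 19511 were tested in edgeR 4.0.16 (R 4.3.3) with TMM scaling and 1 quasi-likelihood fit (glmQLFit, glmQLFTest) over the 3 groups, since shared dispersion steadies small groups. The SE is the log2 fold change divided by the square root of F. The threshold for a call was 0.05 after Benjamini-Hochberg adjustment. A count of 0 allows 3 counts, for counting error only. The 10 genes and the lists were chosen with earlier results of these data known. All 10 genes were named, and from each companion list the called genes with the largest change and at least 1 CPM (up to 4 per comparison). Other genes of the lists were named after their values were seen. The test was tried on simulated data.

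Pairs of libraries within a group differed by more than sampling noise (chi-square per degree of freedom 13.5 to 116 over 12 pairs). Alternatives were other scalings, DESeq2 1.42.0, no filter, blocks, an Xist covariate, subsets of the wild types and leaving out each library.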

Additional observations from a re-analysis of the deposited data

Results flagged for a closer look

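No wild-type library stood apart from the others by Dixon's test for any of the 10 genes (0 of 10; groups of 3 were not tested). Of 20 pairs of a gene and a knockout, 4 were set apart because every knockout library of 1 animal-number block lay on one side of that block's wild-type mean and every one of the other block on the other side. The difference between the blocks was not tested. The difference of the mean CPM, knockout minus wild type, for animals 44 to 51 and then 56 to 63, was -3.48 and 3.06 for Sox13 in heterozygous KO. For Il2rb in heterozygous KO it was -0.535 and 3.10. For Nkg7 in heterozygous KO it was -0.362 and 1.88, and for Cd27 in homozygous KO it was -28.9 and 19.5. None of these 4 was called in the comparison of all libraries. The second block holds 1 wild-type library, wild type 4, which had the lowest wild-type value of all 4 genes.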

How the results depend on the processing

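Sox13, Maf and Eomes passed the threshold in homozygous KO, against wild type and against heterozygous KO, under all alternatives run (20 and 18). The number of the 10 genes called ran from 4 to 7 against wild type and from 3 to 5 against heterozygous KO, and was 0 in heterozygous KO throughout. Over all features, the count in homozygous KO against wild type was 2670 with wild type 3 and 4 as controls (5030 with all). Heterozygous KO against wild type gave 71 with DESeq2 and 5 with the replicate block (3 with all libraries in edgeR and 2 to 4 under the other alternatives), and 2 to 6 on leaving out 1 library (6 without wild type 4). In homozygous KO against heterozygous KO it was 2153 to 3370 on leaving out 1 library (2153 without heterozygous KO 3, 3342 with all). Library totals alone shifted the median of all features in homozygous KO against wild type from -0.01 to -0.11 and the share of higher calls from 48.6% to 29.0%, and against heterozygous KO the share from 44.6% to 26.9%. With wild type 3 and 4 as controls that share was 39.2% in homozygous KO against wild type. For heterozygous KO the share was 100% of 3 calls, 39.4% with DESeq2 and 40% with the replicate block.

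Log2 fold changes turned sign only where no call was made. In homozygous KO against wild type, Il2rb was 0.046 with the animal-number block and -0.13 to 0.12 on leaving out 1 library, Cd27 was -0.18 to 0.0035 on leaving out 1 library, and Klrd1 was -0.066 with wild type 1 and 2 as controls. In heterozygous KO against wild type, the animal-number block gave Zbtb16 0.049, Il2rb 0.088 and Nkg7 0.15, wild type 1 and 2 as controls gave Sox13 0.0038, Zbtb16 0.041 and Il2rb 0.0051, wild type 3 and 4 gave Nkg7 0.053, and the Xist covariate gave Klrd1 -0.095. Il2rb was 0.0020 there without the filter and 7.8e-04 with only the 2 groups. Leaving out 1 library gave Sox13 -0.17 to 0.052, Zbtb16 -0.25 to 0.027, Il2rb -0.078 to 0.081 and Nkg7 -0.16 to 0.090. In homozygous KO against heterozygous KO, the Xist covariate gave Il2rb 0.068 and Klrd1 0.14, and leaving out 1 library gave -0.13 to 0.12 and -0.38 to 0.083. The cause of these changes was not tested.

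Same-numbered libraries deviated together with r from -0.10 to 0.23 over 9 pairs (3 over 0.1). The 3 over 0.1 were the pairs of replicate number 1 (0.11, 0.23 and 0.18), whose animals all fall in the block from 44 to 51. The main fit used no pairing by number, and whether the libraries of number 1 share anything else was not tested. The replicate block changed 1 call of the 10 genes, Zbtb16 in homozygous KO against heterozygous KO, to an adjusted p of 0.0605. Depth limits Eomes most, with 5 to 27 counts in homozygous KO.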
